A study of Mus musculus with 6 samples.

Results

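The 38 genes described here are the homeobox transcription factor genes outside the 4 Hox clusters among the 2031 genes that the authors deposited from an RNA-seq experiment on differentiated mouse embryonic stem (ES) cells. They are all the rows that the authors' annotation places in the Homeobox family, 60 in number, less the 22 genes of the Hox clusters. The ES cells were of the J1 line, from strain 129S4/SvJae, kept in medium with leukemia inhibitory factor and then differentiated towards cardiomyocytes in hanging drops, in which embryoid bodies formed over 3 days. The experiment asked how cells kept under a static magnetic field (MF, 3 libraries) differ from cells of a conventional incubator (NC, 3 libraries), with embryoid bodies as biological triplicates. Both groups came from the same cell line by the same differentiation. How strong the field was, how long exposure lasted and when cells were collected was not given in the sources used here.

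Every deposited gene had passed the authors' own comparison of MF with NC in these libraries, where the largest adjusted p is 0.0499 and the smallest log2 change in either direction is 1.001. A difference between MF and NC in any single member was therefore a condition of its being in the table, and the counts of changed members below are descriptions of a selected list. Homeobox genes outside this table were not analysed here. Library totals lay between 16276230 and 19176383 reads in MF and between 14929232 and 16110497 reads in NC, and the deposited genes took between 5.68% and 10.4% of them. Levels are in FPKM, the authors' read counts scaled to gene length and library total, so that levels of different genes can be set side by side. A count of 0 allows up to 3 counts, which for a 1 kb gene came to 0.156 to 0.201 FPKM, and such limits cover counting error only. By chi-square per degree of freedom over the deposited counts, MF replicate 2 was nearer to NC replicates 3 (73.3) and 1 (81.3) than to MF replicates 3 (137) and 1 (188). This measure is scaled to the summed counts of each pair and grows with read number, so pairs are not fully comparable. The deposited genes held 1985809 and 1515956 reads in MF replicates 1 and 3, against 889064 and 847425 in NC replicates 1 and 3. MF replicate 2 stood apart from the other MF libraries, and NC replicate 2 from the other NC libraries, as described gene by gene below. Values are given in the order replicate 1, 2, 3.

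Homeobox genes encode transcription factors that bind DNA through the homeodomain, a compact fold of helices whose recognition helix lies in the major groove and reads a short AT-rich core. The Hox clusters lay out position along the body axis. Many of the dispersed homeobox genes outside those clusters help to specify organs and cell types, and a gene can act in several of them. Isl1 and the Iroquois genes act in the heart among other places, and Prrx1, Msx1, Alx1 and Alx4 in limb and face mesenchyme. Lhx2 acts in the nervous system, and the X-linked Rhox genes in germ cells and placenta. Meis proteins bind DNA beside Hox and other factors and add to their specificity. Much of the difference in binding preference among homeodomains is known to lie in residue 50 of the domain, in the recognition helix.

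The stretch of coding sequence around that residue is shown because it is what the members have in common and where they part. The sequences come from the GENCODE M21 annotation of mm10, read on the coding strand; each covers homeodomain codons 42 to 57, and the capitals mark codon 50.
Isl1: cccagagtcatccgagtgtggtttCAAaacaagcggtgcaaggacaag
Prrx1: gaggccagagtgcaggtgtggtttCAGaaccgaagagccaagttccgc
Pitx1: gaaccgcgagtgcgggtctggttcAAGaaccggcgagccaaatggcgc
Six2: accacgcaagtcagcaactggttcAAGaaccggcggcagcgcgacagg
Irx3: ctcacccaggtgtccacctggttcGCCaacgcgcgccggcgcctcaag
Meis1: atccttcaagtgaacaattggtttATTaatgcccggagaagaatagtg
Rhox13: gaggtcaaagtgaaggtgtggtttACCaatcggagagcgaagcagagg
The recognition helix pattern was found in 36 of the 38 members, and Rhox1 and Rhox2a had no match to it. Zfhx3, Zfhx4 and Zhx3 had 3 matches each, and the one nearest the start of the protein is used here. Codon 50 was a glutamine codon (CAG or CAA) in 24 members, among them Isl1, Prrx1, Msx1 and Meox1. It was a lysine codon in Pitx1, Six2 and Six5, the residue known from the Bicoid-type homeodomains of flies. The Iroquois genes Irx3, Irx4 and Irx5 carried an alanine codon there, Meis1 and Meis2 an isoleucine codon, Zhx2 and Zhx3 a serine codon and Rhox13 a threonine codon.

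Of the 38 members, 32 (84.2%) were higher in MF than in NC and 6 were lower, while 63.2% of all deposited genes were higher. The 6 lower members were Gbx2, Dbx2, Nkx2-4, Rhox1, Rhox2a and Rhox13. In 32 of the 38 (84.2%) the MF and NC libraries did not overlap (27 higher and 5 lower), a smaller share than the 93.2% of all deposited genes, and Evx1, Msx1, Pitx1, Tlx1 and Gbx2 were among the exceptions. Summed over all members, levels were 233.8, 144.9 and 220.7 FPKM in MF, against 117.6, 103 and 151.7 FPKM in NC. The sum in MF replicate 2 was below that in NC replicate 3, but it mixes both directions. Rhox13, which fell, made up 77.4 FPKM of the sum in NC replicate 3 and 26.9 FPKM in MF replicate 2. In a bulk sample, more cells of a type and more RNA per cell cannot be told apart.

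The test was edgeR's quasi-likelihood test on the deposited counts, with Benjamini-Hochberg adjustment over the 1651 named genes that averaged 0.5 FPKM or more. Of the 33 members that passed this filter, 27 rose and 6 fell, with adjusted p between 0.0111 and 0.0446; of all tested genes, 62.1% rose and 35.4% fell. Since 97.5% of tested genes were called in one direction or the other, nothing about the homeobox genes is read from that count. Among the 5 members below the filter were Dlx4, Nkx2-1, Shox2 and Zhx3. Among tested members without overlap between the groups, 22 were higher and 5 were lower, against 58.4% and 34.2% of all tested genes. The median log2 fold change of the 27 members that rose was 2.52, against 1.62 over the 1052 tested genes that were higher in MF, and that of the 6 that fell was -2.50, against -1.75 over the 599 that were lower. The largest sizes were 4.52 for Pitx1 and -4.78 for Rhox2a.

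Those calls depend on how depth is scaled and on single libraries. Each of the 33 members had the same direction in every alternative in which it was tested. The authors had selected every deposited gene on this contrast, with a log2 change of at least 1.001 in size. Stable signs therefore add no support. With TMM factors 11 members rose and 6 fell, against 291 and 589 of the 1651 tested genes. With median-of-ratios factors 4 members rose and 5 fell, against 158 and 507 of the tested genes. With TMM factors the median log2 fold change of all tested genes was 0.52 in place of 1.22. Without MF replicate 3 no member passed (adjusted p between 0.0559 and 0.114, edgeR), although 25 had an unadjusted p under 0.05. Of all 1651 tested genes 12 rose and 0 fell in that fit, and 858 had an unadjusted p under 0.05. Without MF replicate 1 there were 17 members that rose and 3 that fell, against 357 and 90 of all tested genes. Without NC replicate 1 there were 14 and 5, against 422 and 219. Adjusted over the 19080 tests that the authors' p-values point to, 0 members passed by edgeR, with a smallest adjusted p of 0.128. None of the tested genes passed either, with a smallest edgeR adjusted p of 0.0561. DESeq2 over the 1651 genes called 27 and 6. It called every tested gene, 1052 higher and 599 lower, so nothing about the members is read from that count. In the authors' deposited table the adjusted p of the members runs between 3.41e-11 and 0.0493.

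**Figure D1:**
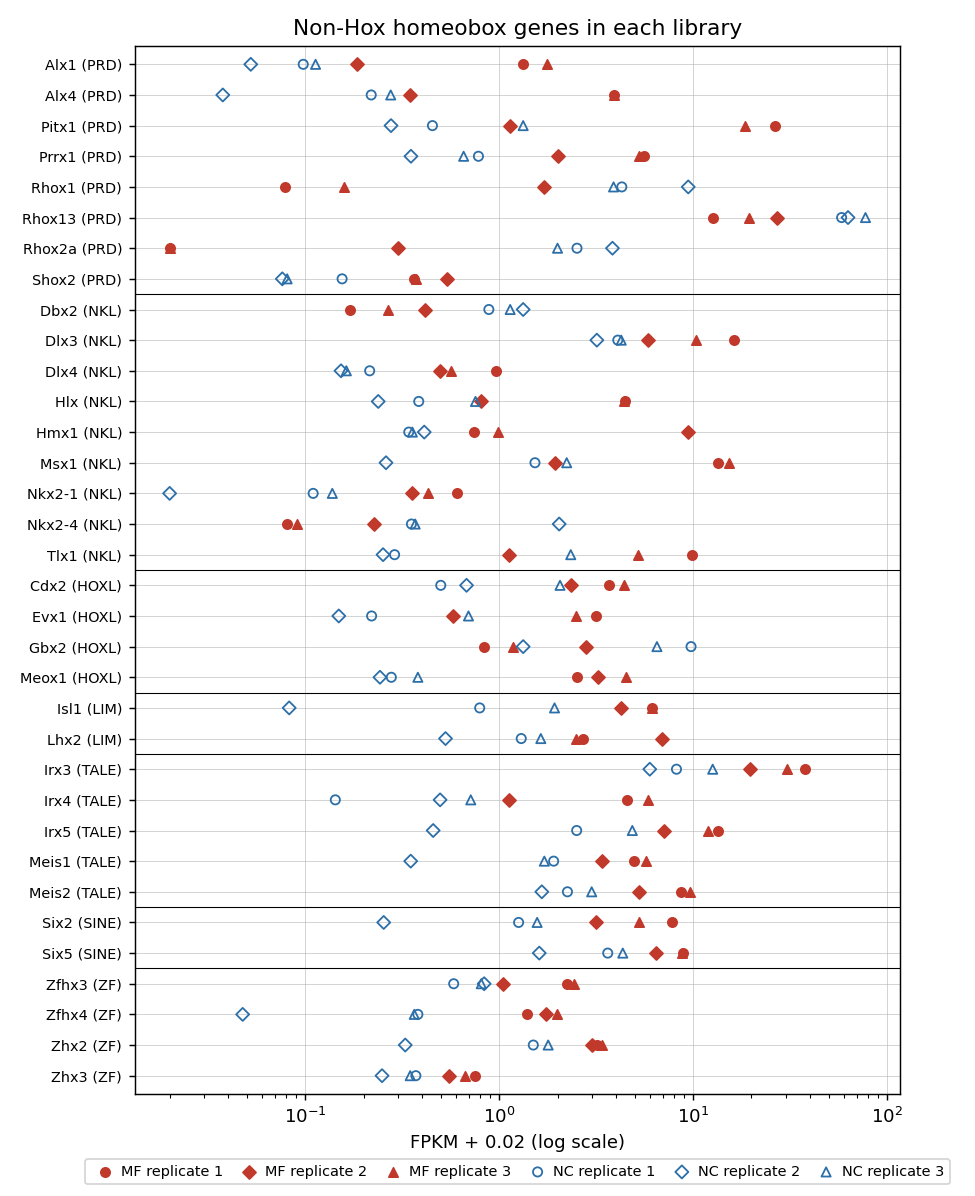
Level of 34 members in each library, as FPKM + 0.02 on a log axis, with MF libraries as filled red symbols and NC libraries as open blue symbols; horizontal lines part the homeobox classes. In most rows the red symbols lie to the right of the blue ones, with the red diamond (MF replicate 2) nearest to them, and the Rhox genes, Gbx2, Dbx2 and Nkx2-4 run the other way.

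By class, the members are spread over 7 homeobox groups. All 6 TALE members (the loop-extension class, which holds the Irx and Meis genes) rose, as did both LIM members (Isl1, Lhx2) and both SINE members (Six2, Six5). Of all tested genes 62.1% rose and 35.4% fell. Of the 11 members of the paired (PRD) class, 8 were higher and 3, all of them Rhox genes, were lower. The NK-like (NKL) members numbered 9, of which 7 were higher and 2, Dbx2 and Nkx2-4, were lower. Among the 4 Hox-like (HOXL) members, Cdx2, Evx1 and Meox1 rose and Gbx2 fell. The 4 zinc-finger homeobox members (Zfhx3, Zfhx4, Zhx2 and Zhx3) were all higher.

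**Figure D2:**
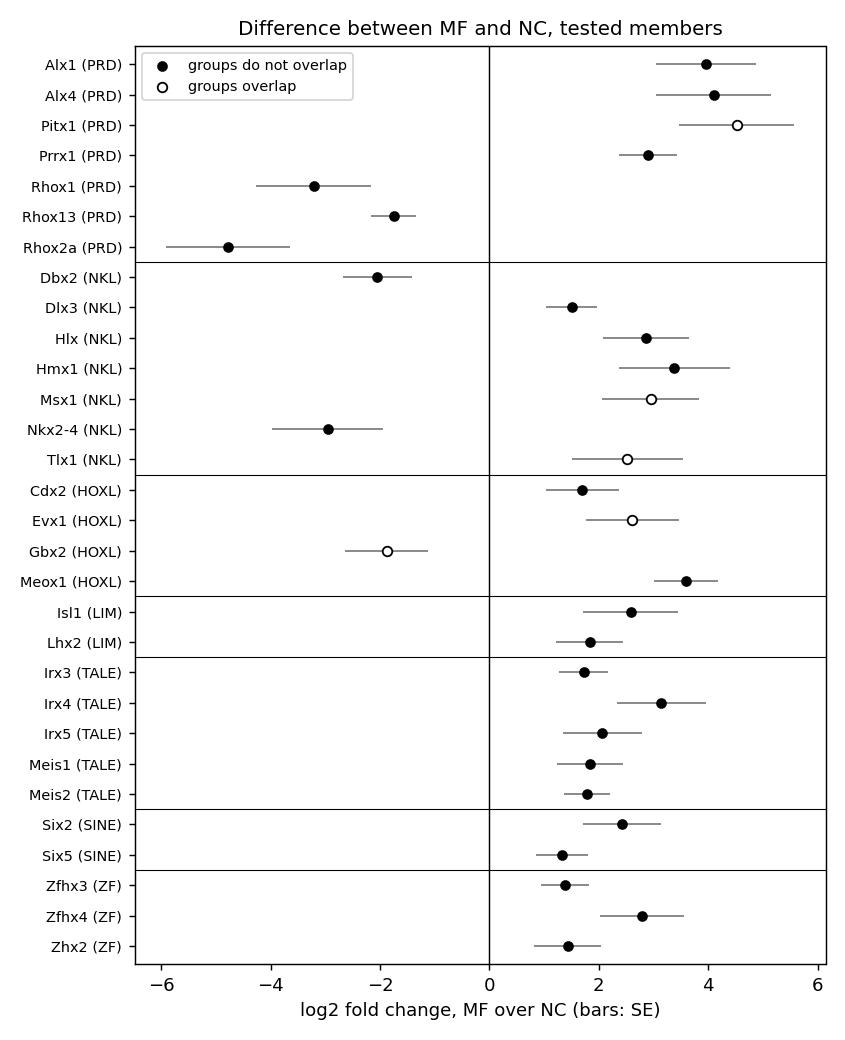
Log2 fold change, MF over NC, of 30 tested members, with bars of 1 SE, grouped by homeobox class; open circles mark members in which MF and NC libraries overlap. The values run between -4.78 for Rhox2a and 4.52 for Pitx1, with the Irx and Meis genes between 1.72 and 3.14.

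The gene lists used from here on were chosen with earlier results of these data known, so counts over them are descriptions and not tests. Of the 24 homeobox genes listed for the heart tube, outflow tract and conduction system, 10 were in the table and all 10 were higher in MF. All 9 that were tested rose, against 62.1% of all tested genes. Isl1, a LIM factor that marks progenitors of the second heart field (chr13:116298281-116309689), was measured at 6.14, 4.24 and 6.11 FPKM in MF, against 0.774, 0.0627 and 1.91 FPKM in NC. Every MF library lay above every NC library, and NC replicate 2 held 4 reads of it. The difference was 2.58 ± 0.87 on the log2 scale (SE, 6-fold higher, edgeR adjusted p = 0.0274). The Iroquois genes encode TALE factors, and those in the table are known from the ventricle among other tissues. Irx3, which acts in the fast-conducting fibres of the ventricle (chr8:91798525-91802067), was the most abundant member that rose, with 37.9, 19.7 and 30.5 FPKM in MF, against 8.19, 5.96 and 12.6 FPKM in NC. Irx5, which shapes the gradient of repolarisation across the ventricular wall and lies 556 kb from Irx3 on the same chromosome (chr8:92357625-92376286), was measured at 13.4, 7.06 and 11.9 FPKM in MF, against 2.49, 0.437 and 4.84 FPKM in NC. Irx4, a ventricular factor (chr13:73260479-73269608), gave 4.56, 1.1 and 5.82 FPKM in MF, against 0.123, 0.476 and 0.694 FPKM in NC. In all 3 genes MF replicate 2 was the lowest MF library and still above each NC library. Irx4 had the largest change of the 3, 3.14 ± 0.81 on the log2 scale (SE, 8.84-fold higher, edgeR adjusted p = 0.019); Irx3 (1.72 ± 0.44 on the log2 scale (SE, 3.29-fold higher, edgeR adjusted p = 0.0189)) and Irx5 (2.06 ± 0.72 on the log2 scale (SE, 4.18-fold higher, edgeR adjusted p = 0.029)) changed less on the log2 scale.

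The TALE cofactors Meis1 and Meis2 rose as well. Meis2 (chr2:115863064-116065839) was measured at 8.6, 5.23 and 9.65 FPKM in MF, against 2.23, 1.64 and 2.98 FPKM in NC. Meis1, its paralog, known for outflow tract formation and for cell cycle exit of cardiomyocytes (chr11:18879817-19018985), gave 4.93, 3.39 and 5.68 FPKM in MF, against 1.89, 0.33 and 1.69 FPKM in NC. Neither overlapped between the groups, and NC replicate 2 was the lowest library in both. Meis1 changed by 1.84 ± 0.60 on the log2 scale (SE, 3.59-fold higher, edgeR adjusted p = 0.0263) and Meis2 by 1.78 ± 0.42 on the log2 scale (SE, 3.43-fold higher, edgeR adjusted p = 0.0153). Shox2, which sets up the pacemaker of the sinus node, stayed below the filter at between 0.346 and 0.521 FPKM in MF and between 0.0562 and 0.135 FPKM in NC, with no overlap. Irx5 missed the threshold without MF replicate 1 (edgeR adjusted p = 0.0577), and without NC replicate 1 both Irx5 (0.0638) and Isl1 (0.0629) did. Without NC replicate 3 the fold was 13.1 for Isl1 and 7.38 for Irx5.

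Cardiomyocyte markers moved with the heart factors: 11 of 14 listed genes were in the table, all higher in MF, with a summed level of 688, 127 and 356 FPKM in MF, against 52.7, 35.5 and 75.5 FPKM in NC. Among the most abundant, Actc1, the cardiac actin, had 244, 59 and 139 FPKM in MF, against 32.8, 7.98 and 35.3 FPKM in NC. Myl4, an atrial myosin light chain, had 39.9, 7.16 and 23.5 FPKM in MF, against 3.58, 2.21 and 4.58 FPKM in NC. Myh6, the alpha myosin heavy chain, had 30.7, 10.8 and 16.1 FPKM in MF, against 1.02, 1.05 and 1.49 FPKM in NC, and MF replicate 2 was the lowest MF library in all 3. In Myl2 (8.58, 15.6 and 1.7 FPKM in MF) and Tnni3 (3.21, 8.19 and 1.61 FPKM) it was the highest. The groups did not overlap in 8 of the 11 markers, against 93.2% of all deposited genes. Myl7, which is given below, Myh7 and Actn2 overlapped. The part of these markers in the homeobox result was not tested.

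Of 26 homeobox genes listed for the mesenchyme of limb, face and skeleton, 10 were in the table and all 10 were higher in MF. All 9 that were tested rose, against 62.1% of all tested genes. Msx1, Prrx1 and Shox2 are on this list and on the heart list, so the counts of both lists share them. In several of the mesenchyme members MF replicate 2 was close to the NC libraries. Pitx1, which gives the hindlimb its identity (chr13:55825051-55836192), had 26.3, 1.12 and 18.6 FPKM in MF, against 0.433, 0.257 and 1.31 FPKM in NC. MF replicates 1 and 3 were far above all NC libraries, and MF replicate 2 was below NC replicate 3. Its change was 4.52 ± 1.05 on the log2 scale (SE, 23-fold higher, edgeR adjusted p = 0.0153).

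The aristaless-like genes Alx1 and Alx4 pattern the facial skeleton and had a like order of libraries, without overlap between the groups. Alx4 (chr2:93642384-93681339) had 3.9, 0.329 and 3.88 FPKM in MF, against 0.199, 0.0176 and 0.256 FPKM in NC. Alx1 was measured at up to 1.74 FPKM in MF and at most 0.0931 FPKM in NC. In both, MF replicate 2 was above each NC library by a small margin, while MF replicates 1 and 3 lay several-fold higher. The changes were 3.96 ± 0.92 on the log2 scale (SE, 15.5-fold higher, edgeR adjusted p = 0.0153) for Alx1 and 4.10 ± 1.05 on the log2 scale (SE, 17.1-fold higher, edgeR adjusted p = 0.0189) for Alx4.

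Prrx1, a marker of limb bud and craniofacial mesenchyme (chr1:163245119-163313710), had 5.54, 2 and 5.24 FPKM in MF, against 0.762, 0.331 and 0.636 FPKM in NC. No MF library overlapped with NC, and its change of 2.89 ± 0.53 on the log2 scale (SE, 7.39-fold higher, edgeR adjusted p = 0.0111) shared the smallest adjusted p among the members with Meox1. Meox1, a somite factor (chr11:101877510-101894374), had 2.5, 3.21 and 4.49 FPKM in MF, against 0.258, 0.223 and 0.361 FPKM in NC, which averaged 3.4 ± 1.01 FPKM in MF and 0.281 ± 0.0717 FPKM in NC (SD, n = 3 each). It was one of the few members in which MF replicate 2 lay between the other MF libraries. The change of Meox1 was 3.59 ± 0.59 on the log2 scale (SE, 12-fold higher, edgeR adjusted p = 0.0111). Msx1, a repressor induced by bone morphogenetic proteins in tooth, palate and limb (chr5:37820485-37824583), had 13.4, 1.92 and 15.3 FPKM in MF, against 1.51, 0.241 and 2.21 FPKM in NC. As with Pitx1, MF replicate 2 was within the NC range, and the change was 2.95 ± 0.89 on the log2 scale (SE, 7.75-fold higher, edgeR adjusted p = 0.024).

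Six2, known for keeping nephron progenitors and also expressed in head and limb mesenchyme (chr17:85684277-85688274), had 7.78, 3.12 and 5.25 FPKM in MF, against 1.24, 0.234 and 1.55 FPKM in NC. Dlx3, a distal-less gene needed in placenta, tooth and bone (chr11:95120119-95125296), had 16.2, 5.82 and 10.3 FPKM in MF, against 4.07, 3.17 and 4.24 FPKM in NC. Both were free of overlap, with MF replicate 2 the lowest MF library. Six2 changed by 2.42 ± 0.71 on the log2 scale (SE, 5.34-fold higher, edgeR adjusted p = 0.0236) and Dlx3 by 1.50 ± 0.47 on the log2 scale (SE, 2.82-fold higher, edgeR adjusted p = 0.0248). Dlx4 lies 15.2 kb from Dlx3 on chromosome 11, stayed below the filter, and was measured at between 0.473 and 0.941 FPKM in MF and between 0.133 and 0.195 FPKM in NC. A transcript on the strand opposite to Dlx4, Dlx4os, gave 2.41, 1.04 and 1.51 FPKM in MF, against 0.154, 0.0746 and 0.0403 FPKM in NC; whether counting used strand is not given, so reads of the pair cannot be told apart.

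Hlx and Tlx1, which were not on that list, act in visceral mesenchyme. Hlx, required in the mesenchyme of gut and liver (chr1:184727140-184732619), had 4.46, 0.784 and 4.37 FPKM in MF, against 0.365, 0.218 and 0.735 FPKM in NC. Tlx1, without which mice form no spleen (chr19:45150680-45156943), had 9.9, 1.11 and 5.2 FPKM in MF, against 0.269, 0.232 and 2.32 FPKM in NC. Hlx in MF replicate 2 was just above NC replicate 3, whereas Tlx1 in MF replicate 2 was below it. Hlx changed by 2.86 ± 0.79 on the log2 scale (SE, 7.27-fold higher, edgeR adjusted p = 0.0216) and Tlx1 by 2.52 ± 1.01 on the log2 scale (SE, 5.75-fold higher, edgeR adjusted p = 0.037).

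Mesenchyme markers moved with these genes: 9 of 10 were in the table and higher, with a sum of 1159, 224 and 979 FPKM in MF, against 248, 90.9 and 133 FPKM in NC, so that the sum in MF replicate 2 was below that in NC replicate 1. Col1a1, a chain of type I collagen, had 615, 127 and 448 FPKM in MF, against 192, 67.6 and 89.3 FPKM in NC. Col3a1, of type III collagen, had 222, 25.4 and 199 FPKM in MF, against 6.2, 2.83 and 6.28 FPKM in NC. Postn, a matrix protein of valve and periosteum, had 86.7, 13.2 and 91.8 FPKM in MF, against 5.31, 3.06 and 4.93 FPKM in NC. Col1a2, the partner chain of Col1a1, had 109, 30.6 and 100 FPKM in MF, against 36.7, 11.9 and 22.1 FPKM in NC, and like Col1a1 it overlapped between the groups. The part of these markers in the result was not tested. Without MF replicate 1, Dlx3, Six2 and Tlx1 missed the threshold (largest edgeR adjusted p 0.103), without NC replicate 1 Dlx3 and Tlx1 did (0.0923), and without NC replicate 2 Tlx1 did (0.092). The fold for Pitx1 was 14.8 without MF replicate 1 and 44.1 without NC replicate 3, that for Tlx1 3.36 and 21.3, and without NC replicate 3 it was 11.7 for Msx1.

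Of 14 homeobox genes listed for gastrulation, the node and the tail end of the embryo, 3 were in the table, of which 2 rose and 1 fell. Of all tested genes 62.1% rose and 35.4% fell. Cdx2, which drives posterior growth of the embryo and also the trophectoderm (chr5:147300805-147307270), had 3.67, 2.32 and 4.37 FPKM in MF, against 0.48, 0.659 and 2.04 FPKM in NC. Every MF library was above NC, with MF replicate 2 just above NC replicate 3, and the change was 1.70 ± 0.66 on the log2 scale (SE, 3.25-fold higher, edgeR adjusted p = 0.0338). Evx1, a factor of the primitive streak that lies 52.6 kb beyond Hoxa13, itself in the table, at the end of the Hoxa cluster (chr6:52313498-52318378), had 3.15, 0.559 and 2.46 FPKM in MF, against 0.2, 0.129 and 0.675 FPKM in NC. MF replicate 2 overlapped with NC, and the change was 2.61 ± 0.85 on the log2 scale (SE, 6.13-fold higher, edgeR adjusted p = 0.0262); the opposite-strand transcript Evx1os ran alongside, at 1.07, 0.178 and 0.774 FPKM in MF, against 0.0635, 0.0411 and 0.0444 FPKM in NC. Gbx2, which positions the midbrain-hindbrain boundary and is also a target of leukemia inhibitory factor signalling in ES cells (chr1:89927956-89931179), ran the other way. It had 0.814, 2.79 and 1.16 FPKM in MF, against 9.74, 1.31 and 6.49 FPKM in NC. Here NC replicate 2 lay below MF replicate 2, so the groups overlapped, and the change was -1.88 ± 0.76 on the log2 scale (SE, 3.68-fold lower, edgeR adjusted p = 0.0372). With the replicate number as a block, the adjusted p of Gbx2 was 0.107 by edgeR; that fit called 26 members higher and 5 lower, and 62.4% and 35.7% of all tested genes.

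These 3 calls were sensitive to single libraries. All 3 were lost without MF replicate 1 (edgeR adjusted p 0.0643 to 0.0943) and without NC replicate 1 (0.0644 to 0.152), Cdx2 and Evx1 without NC replicate 2 (at most 0.0805) and Gbx2 without NC replicate 3 (0.0661). The fold was 5.92 lower for Gbx2 without MF replicate 2, and without NC replicate 3 it was 6.03 for Cdx2 and 12.3 for Evx1. Of 10 trophoblast markers 3 were in the table and higher in MF, namely Cdx2 itself, Hand1, also on the cardiac partner list, and Peg10. Elf5, Gcm1, Prl3d1, Tpbpa and Ascl2 of that list were not in the table. The sum, most of it from Peg10, was 684, 310 and 733 FPKM in MF, against 240, 159 and 246 FPKM in NC. Peg10, an imprinted gene of the placenta, had 542, 248 and 589 FPKM in MF, against 184, 134 and 197 FPKM in NC, and the heart and trophoblast factor Hand1 is given below. The endoderm list had 1 of 8 genes in the table, Gata6, at 25.9, 2.19 and 23.3 FPKM in MF, against 0.981, 2.93 and 2.78 FPKM in NC, overlapping between the groups. The part of these markers was not tested.

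Of 24 homeobox genes listed for oocyte, cleavage embryo, placenta and testis, 3 were in the table and all 3 fell, against 35.4% of all tested genes. They were Rhox1, Rhox2a and Rhox13, from the reproductive homeobox cluster of the X chromosome. Rhox13, a factor of testicular germ cells (chrX:38121219-38129967), was the most abundant member in NC and the only member above 50 FPKM in any library, with 12.7, 26.9 and 19.5 FPKM in MF, against 58.3, 62.9 and 77.4 FPKM in NC. It averaged 19.7 ± 7.12 FPKM in MF and 66.2 ± 9.95 FPKM in NC (SD, n = 3 each). The groups were well apart, with MF replicate 2 the highest MF library, and the change was -1.75 ± 0.41 on the log2 scale (SE, 3.36-fold lower, edgeR adjusted p = 0.0153). Rhox1 (chrX:37213804-37222258) had 0.0591, 1.69 and 0.139 FPKM in MF, against 4.27, 9.42 and 3.87 FPKM in NC. The MF values rest on 1, 25 and 2 reads, against 59, 134 and 51 reads in NC, and the change was -3.21 ± 1.05 on the log2 scale (SE, 9.27-fold lower, edgeR adjusted p = 0.0263). Rhox2a (chrX:37244976-37249686) had 0, 4 and 0 reads in MF, against 33, 52 and 25 reads in NC. Its change was -4.78 ± 1.13 on the log2 scale (SE, 27.5-fold lower, edgeR adjusted p = 0.0153). Rhox2a has near-identical copies in the cluster, among which reads may have been split, so its level is uncertain.

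Rhox1 and Rhox2a lie 22.7 kb apart, and Rhox13 lies a further 872 kb along the X chromosome. Without MF replicate 2, Rhox1 had 3 reads in MF, against 244 in NC, a ratio of NC to MF per library total of 61.8 (exact 95% interval for counting error 20.9 to 302). Without that library Rhox2a had no read in MF, and was at least 27.8-fold lower in MF when 3 counts over the group stand for 0. The fitted fold for Rhox2a was 18.3 without MF replicate 1, and Rhox1 missed the threshold without NC replicate 2 (edgeR adjusted p at most 0.0609).

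Germ cell markers and pluripotency markers fell alongside, and their part in the Rhox result was not tested. Of 9 germ cell genes 6 were in the table, with a sum of 3.4, 15.9 and 7.32 FPKM in MF, against 50.5, 172 and 40.3 FPKM in NC. Stra8, the retinoic acid target of meiotic entry, had 0.26, 2.74 and 0.75 FPKM in MF, against 17.5, 57.3 and 9.06 FPKM in NC. Sohlh2, a factor of spermatogonia and oocytes, had 0.199, 5.29 and 2.16 FPKM in MF, against 15.9, 77.1 and 17.5 FPKM in NC. Mael acts in the piRNA pathway and had 1.87, 4.33 and 2.55 FPKM in MF, against 12.2, 23.9 and 8.7 FPKM in NC. Sycp3, of the synaptonemal complex, had 0.949, 3.01 and 1.65 FPKM in MF, against 3.74, 7.32 and 3.76 FPKM in NC. NC replicate 2 was the highest and MF replicate 2 the highest of MF in each of these 4 genes. Of 15 pluripotency genes 4 were in the table, with a sum of 68.8, 185 and 65.5 FPKM in MF, against 324, 750 and 274 FPKM in NC. Utf1, a chromatin factor of ES cells, had 12.6, 85.8 and 21.8 FPKM in MF, against 162, 335 and 131 FPKM in NC. Klf2, of the naive state, had 52.5, 80.3 and 37.6 FPKM in MF, against 124, 322 and 101 FPKM in NC. Dppa3, an oocyte and early germ cell protein, had 3.16, 15.7 and 5.3 FPKM in MF, against 33.9, 73.6 and 36.6 FPKM in NC. In all 3, and in Prdm14, a germ cell and naive state factor with 0.488, 3.11 and 0.887 FPKM in MF, against 4.19, 19.9 and 4.28 FPKM in NC, MF replicate 2 was the highest MF library and NC replicate 2 the highest NC library.

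A pair of promoters is shown for the most abundant gene that rose and the most abundant that fell. Both are from the RefSeq promoter table on GRCm38.p6, with 250 bases before the start used there and 50 after. That start differs from the start of the counted gene in both. The Irx3 window lies inside the counted gene (chr8:91798525-91802067), and the Rhox13 window ends before the counted gene (chrX:38121219-38129967). Capitals mark CG dinucleotides, of which the Irx3 window (chr8:91801605-91801904, minus strand) holds 14 and the Rhox13 window (chrX:38120590-38120889, plus strand) holds 5.
Irx3: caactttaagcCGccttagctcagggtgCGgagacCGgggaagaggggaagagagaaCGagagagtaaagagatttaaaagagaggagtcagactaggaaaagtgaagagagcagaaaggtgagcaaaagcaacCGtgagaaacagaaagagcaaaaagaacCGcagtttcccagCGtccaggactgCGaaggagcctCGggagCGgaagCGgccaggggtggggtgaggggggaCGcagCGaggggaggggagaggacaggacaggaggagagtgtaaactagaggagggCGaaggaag
Rhox13: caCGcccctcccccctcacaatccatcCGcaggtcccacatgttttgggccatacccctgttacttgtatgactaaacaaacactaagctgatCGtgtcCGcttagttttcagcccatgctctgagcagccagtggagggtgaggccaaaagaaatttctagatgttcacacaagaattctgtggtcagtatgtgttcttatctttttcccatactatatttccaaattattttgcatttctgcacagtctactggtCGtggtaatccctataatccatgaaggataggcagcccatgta
Of the 38 members 25 matched this table by symbol. Some other windows, such as that of Zfhx3 (chr8:108714394-108714693), also lie away from the start of the counted gene (107942644 for Zfhx3). The median number of CG dinucleotides was 17 in the 19 that were higher (6 to 38) and 9 in the 6 that were lower, against 7 over all 27025 promoters. The homeodomain core TAAT or, on the other strand, ATTA was found in 15 of the 25 windows (60%), against 58.3% of all windows of this length. A match is a description of the letters and not of binding.

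Of 34 homeobox genes listed for the nervous system and sense organs, 4 were in the table and all 4 were higher in MF. Both tested ones were called higher, against 62.1% of all tested genes. The list did not hold Dbx2 and Nkx2-4, which are also known from neural tissue and were lower in MF. Lhx2, which patterns eye and forebrain (chr2:38339281-38369733), had 2.68, 6.92 and 2.48 FPKM in MF, against 1.28, 0.509 and 1.62 FPKM in NC, with MF replicate 2 the highest library, no overlap and a change of 1.83 ± 0.61 on the log2 scale (SE, 3.55-fold higher, edgeR adjusted p = 0.0269). Hmx1, a factor of the eye, ear and sympathetic neurons that the list had not included (chr5:35389108-35399730), had 0.722, 9.37 and 0.967 FPKM in MF, against 0.322, 0.391 and 0.337 FPKM in NC. MF replicates 1 and 3 were above NC by less than the distance to MF replicate 2, and the change was 3.38 ± 1.01 on the log2 scale (SE, 10.4-fold higher, edgeR adjusted p = 0.024).

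Nkx2-1, of ventral forebrain, thyroid and lung, was below the filter, with MF replicate 2 the lowest MF library, at between 0.335 and 0.587 FPKM in MF and between 0 and 0.118 FPKM in NC. Dbx2 and Nkx2-4, also known from neural tissue, were lower in MF. Dbx2, of the spinal cord (chr15:95623563-95655960), lay between 0.15 and 0.395 FPKM in MF and between 0.865 and 1.31 FPKM in NC, and changed by -2.05 ± 0.63 on the log2 scale (SE, 4.14-fold lower, edgeR adjusted p = 0.0243). Nkx2-4, a paralog of Nkx2-1, lay between 0.0605 and 0.207 FPKM in MF and between 0.333 and 2.02 FPKM in NC, and changed by -2.96 ± 1.02 on the log2 scale (SE, 7.77-fold lower, edgeR adjusted p = 0.0285).

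Neural markers could be checked only through Dcx, the 1 of 9 listed genes in the table, a microtubule protein of young neurons. Dcx had 0.144, 1.62 and 0.403 FPKM in MF, against 0.0505, 0 and 0.0794 FPKM in NC, with MF replicate 2 the highest library, as in Hmx1 and Lhx2. The part of such cells in MF replicate 2 was not tested. Without that library the fold was 2.39 for Hmx1 and 2.27 for Lhx2, and both missed the threshold (edgeR adjusted p 0.0784 and 0.0634), while Nkx2-4 was then 12.9-fold lower. Hmx1 and Lhx2 also missed it without NC replicate 1 (at most 0.0572), Dbx2 and Nkx2-4 without MF replicate 1 (at most 0.0754), and Lhx2 and Nkx2-4 without NC replicate 2 (at most 0.16, with a fold for Nkx2-4 of 2.97).

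The remaining members are expressed in many tissues. Six5, a SINE factor next to the human myotonic dystrophy locus (chr7:19094594-19098549), had 8.81, 6.41 and 8.79 FPKM in MF, against 3.61, 1.59 and 4.32 FPKM in NC. Zhx2, a zinc-finger homeobox repressor of fetal genes in liver (chr15:57694665-57839832), had 3.19, 2.98 and 3.39 FPKM in MF, against 1.48, 0.308 and 1.77 FPKM in NC, and its MF libraries were the closest to each other of the fully listed members that rose. Neither overlapped between the groups. Six5 changed by 1.33 ± 0.48 on the log2 scale (SE, 2.52-fold higher, edgeR adjusted p = 0.0301) and Zhx2, with the largest adjusted p of the members, by 1.43 ± 0.61 on the log2 scale (SE, 2.69-fold higher, edgeR adjusted p = 0.0446). Zfhx3, a large factor tied to atrial fibrillation in humans, lay between 1.03 and 2.4 FPKM in MF and between 0.563 and 0.817 FPKM in NC, and changed by 1.38 ± 0.44 on the log2 scale (SE, 2.61-fold higher, edgeR adjusted p = 0.0254). Its relative Zfhx4 lay between 1.37 and 1.97 FPKM in MF and between 0.0276 and 0.361 FPKM in NC, and changed by 2.79 ± 0.76 on the log2 scale (SE, 6.9-fold higher, edgeR adjusted p = 0.0211). Zhx3 stayed below the filter, at between 0.53 and 0.728 FPKM in MF and between 0.229 and 0.352 FPKM in NC. Six5, Zfhx3 and Zhx2 missed the threshold without MF replicate 1 (edgeR adjusted p at most 0.0891) and without NC replicate 1 (at most 0.0757), Six5 and Zhx2 without NC replicate 2 (at most 0.0683) and Zhx2 without MF replicate 2 (0.0656).

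The position of MF replicate 2 divided the members. It was the lowest MF library in 25 of the 32 members that were higher (78.1%; 78.5% of all deposited genes that were higher) and the highest in 5, among them Hmx1, Lhx2 and Shox2. In all 6 lower members it was the highest MF library, as in 84.9% of all deposited genes that were lower. On the scale of log2(FPKM + 0.1) less the log2 of the NC mean, the median of the higher members was 2.06, 1.16 and 2.06 in MF, against 0.10, -0.78 and 0.44 in NC. Set against the mean of MF replicates 1 and 3, MF replicate 2 was lower by the most in Pitx1, with a difference of -4.19, with -3.22 in Alx4 and -2.84 in Msx1. It was higher by the most among the higher members in Hmx1 (3.34), was higher in Lhx2 (1.39), and was nearly level in Meox1 (-0.07) and Zfhx4 (0.07). NC replicate 2 was the lowest NC library in 28 of the 32 higher members (87.5%; 69.9% of deposited genes that were higher). Without both replicate 2 libraries 25 members rose and 6 fell by edgeR, against 1027 and 582 of all tested genes. Hmx1 was among the members lost (edgeR adjusted p = 0.064).

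**Figure D3:**
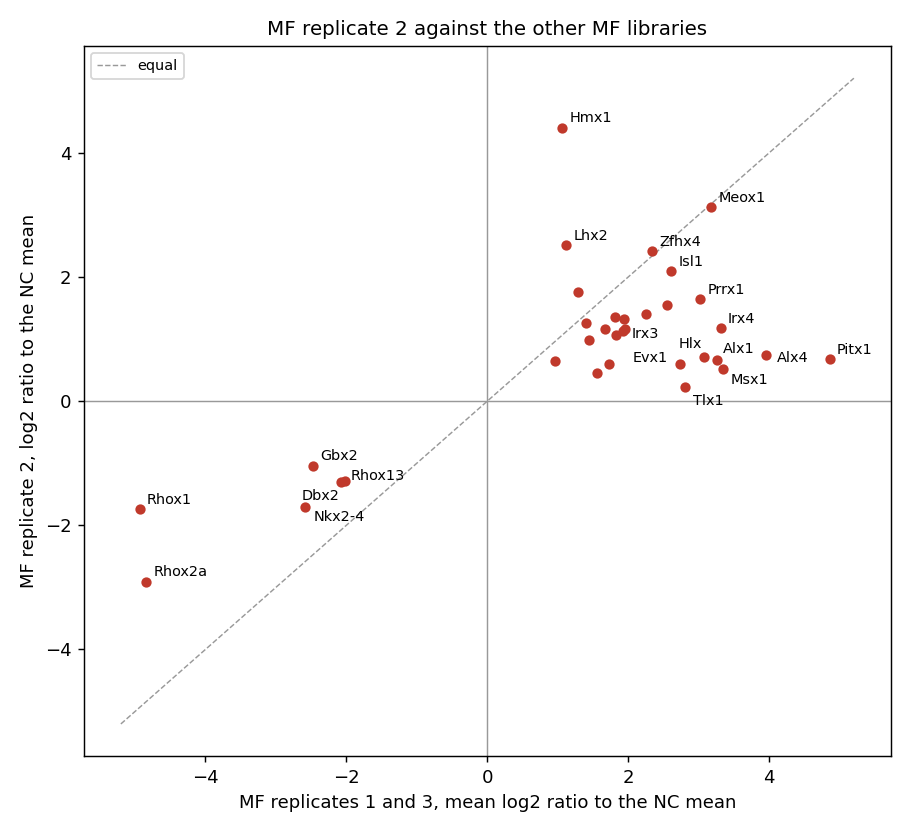
Each of the 34 points is a member; the x axis is the mean of MF replicates 1 and 3 and the y axis is MF replicate 2, both as log2(FPKM + 0.1) relative to the NC mean, and the dashed line marks equal values. Most members that were higher lie below the line, with Pitx1 farthest from it, and Hmx1 and Lhx2 lie above it.

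The proteins that work with the cardiac homeobox factors, and genes these are known to bind, formed a list of 24, of which 18 were in the table. All 18 were higher in MF, and the 16 that were tested rose, against 62.1% of all tested genes. The median log2 fold change of these 16 was 2.80. Between the groups 13 of the 18 had no overlap, against 1892 of all 2031 deposited genes (93.2%). Hand2, a right ventricle and limb bud factor, had 59.1, 3.11 and 57.7 FPKM in MF, against 0.543, 0.238 and 2.96 FPKM in NC, a change of 5.00 ± 1.19 on the log2 scale (SE, 32.1-fold higher, edgeR adjusted p = 0.0155). Its relative Hand1, of left ventricle and trophoblast, had 138, 59.8 and 140 FPKM in MF, against 54.8, 24.2 and 46.7 FPKM in NC, a change of 1.43 ± 0.48 on the log2 scale (SE, 2.69-fold higher, edgeR adjusted p = 0.0276). Myl7, the atrial light chain, had 288, 11.7 and 129 FPKM in MF, against 10.7, 17.6 and 24.3 FPKM in NC, with MF replicate 2 inside the NC range. Its change was 3.03 ± 0.89 on the log2 scale (SE, 8.15-fold higher, edgeR adjusted p = 0.0236), and with the replicate number as a block the adjusted p was 0.0629. Nppb, the B-type natriuretic peptide, was highest in MF replicate 2, with 14.8, 20.9 and 9.6 FPKM in MF, against 5.97, 2.86 and 7.72 FPKM in NC and a change of 1.45 ± 0.55 on the log2 scale (SE, 2.73-fold higher, edgeR adjusted p = 0.0326).

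Bone morphogenetic protein (BMP) and Wnt signals lie upstream of Msx, Dlx and Cdx genes. Of 24 such genes, 8 were in the table and all 8 were higher in MF. The 7 that were tested rose, against 62.1% of all tested genes. The median log2 fold change of these 7 was 2.16. The ligand Bmp4 had 37.7, 14.4 and 42.7 FPKM in MF, against 6.62, 5.74 and 12.3 FPKM in NC, a change of 1.94 ± 0.52 on the log2 scale (SE, 3.85-fold higher, edgeR adjusted p = 0.0199). Bambi, a decoy receptor induced by the same pathway, had 30, 13.3 and 32.9 FPKM in MF, against 9.44, 4.06 and 11.4 FPKM in NC. The Wnt receptor Fzd1 had 23, 9.01 and 18.3 FPKM in MF, against 5.39, 0.858 and 4.98 FPKM in NC. The ligand Wnt5a had 10.3, 3.42 and 7.38 FPKM in MF, against 2.08, 0.349 and 2.24 FPKM in NC. In these 4 genes all MF libraries were above all NC libraries, with MF replicate 2 the lowest of MF. Bambi changed by 1.61 ± 0.51 on the log2 scale (SE, 3.06-fold higher, edgeR adjusted p = 0.0253), Fzd1 by 2.16 ± 0.66 on the log2 scale (SE, 4.48-fold higher, edgeR adjusted p = 0.0242) and Wnt5a by 2.18 ± 0.68 on the log2 scale (SE, 4.52-fold higher, edgeR adjusted p = 0.0247).

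Counts of both lists moved with single libraries. Without MF replicate 3, 1 partner and 0 signals were called, without MF replicate 1 it was 9 and 4, and without NC replicate 1 it was 10 and 5. Of all 1651 tested genes, 12, 357 and 422 were called higher in those 3 fits. Beyond the fit without MF replicate 3, Nppb missed the threshold without replicate 1 or 2 of either group (edgeR adjusted p at most 0.0786). Hand1 and Bambi did so without MF replicate 1, NC replicate 1 or NC replicate 2 (at most 0.0722). Myl7 missed it without MF replicate 1 or NC replicate 1 (at most 0.0525), and Wnt5a without MF replicate 1 (0.0542). Hand2, Bmp4 and Fzd1 missed it in no other such fit. Of 8 endothelial markers 5 were in the table, of which 4 rose and 1 fell, against 62.1% and 35.4% of all tested genes. Their sum was 41.3, 21.9 and 31.7 FPKM in MF, against 12.4, 42.8 and 19 FPKM in NC. Pecam1 was lower, with 6.41, 7.93 and 5.81 FPKM in MF, against 8.43, 38.2 and 8.75 FPKM in NC, while Cdh5 was higher, with 19.5, 9.11 and 13.2 FPKM in MF, against 2.28, 3.99 and 6.49 FPKM in NC. Kdr had 8.19, 2.05 and 6.21 FPKM in MF, against 0.969, 0.309 and 1.54 FPKM in NC and Cd34 had 5.58, 2.34 and 5.11 FPKM in MF, against 0.727, 0.281 and 1.85 FPKM in NC, both higher in every MF library. The part of these cells was not tested.

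**Figure D4:**
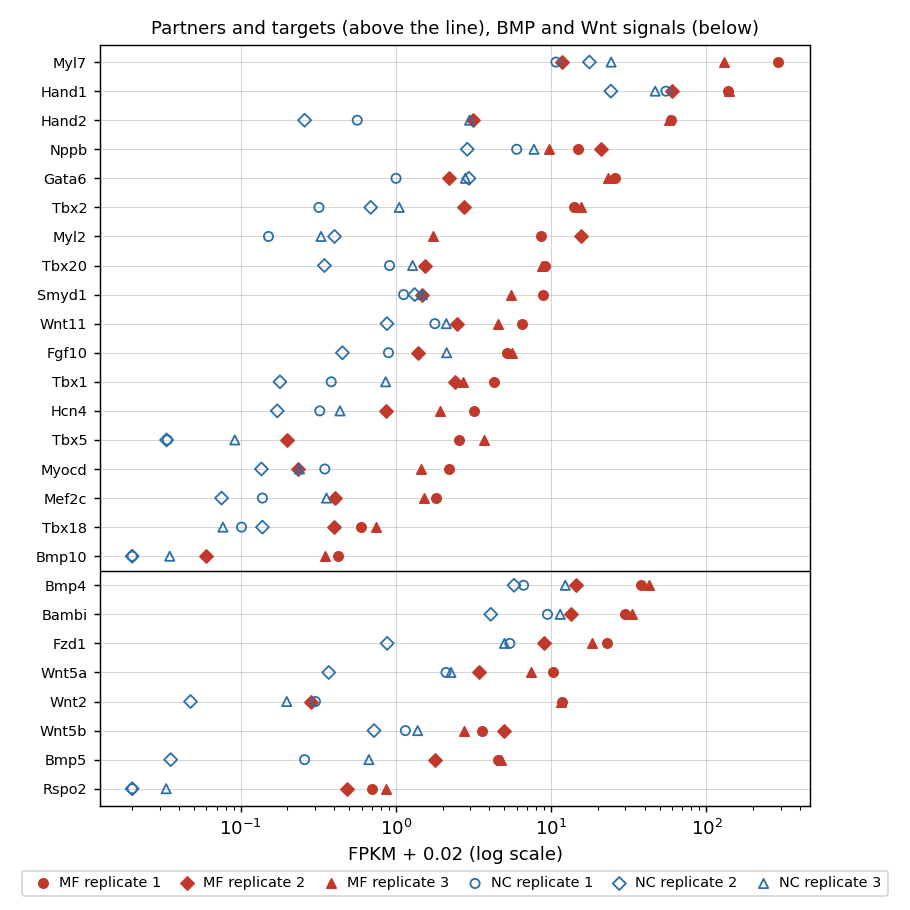
Level of the 18 partners and targets of cardiac homeobox factors (above the line) and the 8 BMP and Wnt signals (below it) in each library, as FPKM + 0.02 on a log axis, with MF libraries as filled red symbols and NC libraries as open blue symbols. MF replicates 1 and 3 lie to the right in every row, and MF replicate 2 (red diamond) often lies near the NC symbols, as for Myl7 and Gata6.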

How the data were processed

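Poly-A RNA of 3 MF and 3 NC cultures was sequenced, per the labels' protocols. The submitters' processing notes name HISAT2 (2.0.5), featureCounts and mm10, while settings, strand use and the tool of the authors' comparison were not given in the sources used here. Per the file headers, the authors deposited raw counts, FPKM and a normalized signal per gene, with their own log2 fold changes, p-values and adjusted p-values; gene lengths and positions are theirs too. Library totals were recovered from the deposited count, length and FPKM, with a relative spread of at most 1.42e-08 over genes. Rows with no gene name (48, between 0.0134% and 0.039% of the totals) stayed out of the tests, and 4 names that had turned into dates were restored by ID.

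Counts were tested with edgeR 4.0.16 (R 4.3.3; glmQLFit, glmQLFTest, group as the only term, two-sided) with the recovered totals as library sizes, over named genes averaging 0.5 FPKM or more, with Benjamini-Hochberg adjustment at 0.05. The common biological coefficient of variation was 0.506. The SE of a log2 fold change is its size divided by the square root of F. Alternatives used DESeq2 1.42.0, limma 3.58.1 on log2(FPKM + 1) and log2(FPKM + 0.1), other scalings and filters, a replicate block and left-out libraries. Adjustment over the deposited genes does not control errors over the genome, since the authors had selected these genes on the same libraries.

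The members and lists were chosen with earlier results of these data known. Of the members, 4 are counted in the totals and are not reported here by name or value. Each of the others is named; those averaging 2 FPKM or more in their higher group have each library's value, and up to 4 genes of each other list are named by mean FPKM. Deviations from group means correlated at 0.39, 0.55 and 0.32 between libraries numbered 1, 2 and 3. By a rule on these correlations, and not from a label, the numbers were taken to pair the libraries in the replicate block fit only. Changes, SEs and adjusted p-values given gene by gene come from the unpaired fit unless the block is named. NC replicate 3 correlated more with MF replicate 1 (0.54) than with MF replicate 3. No 2 libraries agreed within counting noise (chi-square per degree of freedom 23.5 to 757). Of the members, 20 are overlapped by another annotated gene in GENCODE M21 (mm10), 19 of them on the opposite strand.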

Additional observations from a re-analysis of the deposited data

How the results depend on the processing

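All members tested had the same direction under every alternative, which the authors' selection on this contrast makes likely. The calls depended on scaling and on single libraries. Members called higher numbered 27, and 11 with TMM factors, 4 with median-of-ratios factors and 10 with sums of the deposited counts as library sizes. Under these 3 scalings 6, 5 and 4 members were called lower. Of all tested genes 1026 were called higher, and 291, 158 and 284 under those scalings. Called lower were 584 of them, and 589, 507 and 403. Adjusted over 19080 tests, 0 members and 0 of all tested genes were called. The median log2 fold change of all tested genes was 1.22, and 0.52, 0.16 and 0.65 under those 3 scalings. Members called lower numbered 6, and 3 with the filter at 2 FPKM, where 22 members were tested, and 0 over 19080 tests, in which 33 members and 1613 genes had an unadjusted p under 0.05 by edgeR. Partners called numbered 16, and 8, 7 and 8 under the 3 scalings and 0 over 19080 tests. Signals called numbered 7, and 3, 1 and 3 under the scalings and 0 over 19080 tests. With 1 library left out, members called ran from 0 to 26 higher and from 0 to 6 lower, partners from 1 to 16 and signals from 0 to 7. All tested genes called then ran from 12 to 996 higher and from 0 to 582 lower. The replicate block called 26 members higher and 5 lower, and beside Gbx2 and Myl7 it changed no other call of the members, partners and signals named here, while other marker genes were not compared between the fits. With no filter 38 members were tested and 31 rose and 6 fell, Zhx3 missing the threshold (edgeR adjusted p = 0.0512). DESeq2 and the authors' size factors as library sizes, the second chosen after seeing the data, gave 27 and 6 again. DESeq2 called every tested gene, 1052 higher and 599 lower. By limma 25 and 5 were called with a pseudocount of 1 FPKM, against 1022 and 563 of all tested genes. With a pseudocount of 0.1 it was 26 and 5, against 1021 and 570. The causes of these differences were not tested. Depth limits members with few reads. Under 10 counts in at least 1 library were found for Rhox1, Rhox2a, Nkx2-1, Nkx2-4, Alx1, Alx4 and Meox1. The same held for Irx4, Isl1, Hlx, Tlx1, Evx1, Six2, Hmx1 and Zfhx4, among others.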
